A study of Homo sapiens with 6 samples.

Results

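Mucins are large glycoproteins whose backbones carry long stretches rich in serine, threonine and proline, to which many O-linked sugar chains are attached. Some are anchored in the apical membrane of epithelial cells and others are secreted to form mucus gels. Trefoil factors are small secreted proteins, folded around disulfide bonds, that are stored and released together with mucins and are known for their part in the repair of mucosal surfaces. In the mammary gland, MUC1 lines the luminal surface of epithelial cells, and TFF1 is a classical estrogen-induced gene of breast cancer cells.

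The genes described here were 9 mucin and trefoil factor genes chosen by name from a count table of 56505 rows: MUC1, MUC4, MUC15, MUC16, MUC20 and MUC5B, and TFF1, TFF2 and TFF3. They were measured by RNA sequencing in 6 libraries labelled as MDA-MB-468, an established basal-like line of human breast cancer that lacks the hormone receptors and amplified ERBB2, grown in medium with serum and given no other treatment. One group of 3 libraries (shControl) expressed a control hairpin, and the other group of 3 (shCK5) expressed 1 short hairpin RNA against cytokeratin 5, the product of KRT5; both hairpins came from the same type of vector, per the labels. Separate cultures are not stated for the replicates, so each p-value reflects the spread between these libraries alone, which may be technical. With 1 hairpin, effects on other targets and those of KRT5 loss cannot be told apart.

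Total counts lay between 68810882 and 83594772 per library. KRT5, the targeted gene, had 2056, 2060 and 2017 CPM (the gene's counts relative to the TMM-scaled library size) in shControl and 17.21, 15.53 and 16.52 CPM in shCK5. The tumour suppressor genes RB1 and SMAD4 are known to be deleted in MDA-MB-468. RB1 went from 1.996 ± 0.136 CPM in shControl to 101.0 ± 2.16 CPM in libraries labelled shCK5, and SMAD4 had 0.2346 ± 0.138 and 16.86 ± 0.547 CPM (SD, n = 3 each). The expression of these deleted genes goes against the MDA-MB-468 label of the shCK5 libraries, and no test of DNA was at hand. If the groups come from different cells, the differences below need not be effects of the hairpin. Of 13 epithelial markers, 12 were lower and 1 higher in shCK5. Over all genes tested, 82.7% were called at an edgeR adjusted p under 0.05, 40.9% higher and 41.7% lower. That share is the background for every marker count here. The summed level of the epithelial markers was 6524 to 6653 CPM in shControl and 2010 to 2059 CPM in shCK5. Markers of leukocytes (5 of 10 passed the filter on low counts, 1 higher and 3 lower) summed to 16.26 to 19.13 CPM in shControl and 4.774 to 5.631 CPM in shCK5, and MS4A1 and TYROBP were among those with no count in any library. Fibroblast markers (4 of 10 passed, 2 higher and 2 lower) summed to 19.33 to 20.41 and 13.1 to 14.93 CPM, with THY1 at no count in any library, and endothelial markers (7 of 8 passed, 3 higher and 4 lower) to 5.378 to 7.26 and 6.426 to 7.357 CPM. The part of other cell types in the results was not tested. In bulk RNA, fewer cells of a type and less RNA per cell cannot be told apart.

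The mucin that is most abundant in shControl and the mucin that was higher in shCK5 are shown by their promoters, because their levels differed in opposite directions. RefSeq's promoter table (GRCh38.p14, 250 bases before to 50 after an annotated start) held 3 of the 9 genes, MUC1, MUC4 and MUC16, and did not hold MUC15, MUC20, MUC5B, TFF1, TFF2 or TFF3. The first MUC1 window listed is chr1:155192866-155193165 and the MUC4 window is chr3:195811880-195812179, both on the minus strand. Capitals mark matches on either strand to 7 motifs: the E-box CACCTG, the GC box GGGCGG, the AP-1 motif TGANTCA, the FOXA motif TGTTTAC, the STAT motif TTCNNNGAA, the TATA box TATAAA and the palindromic estrogen response element.
MUC1: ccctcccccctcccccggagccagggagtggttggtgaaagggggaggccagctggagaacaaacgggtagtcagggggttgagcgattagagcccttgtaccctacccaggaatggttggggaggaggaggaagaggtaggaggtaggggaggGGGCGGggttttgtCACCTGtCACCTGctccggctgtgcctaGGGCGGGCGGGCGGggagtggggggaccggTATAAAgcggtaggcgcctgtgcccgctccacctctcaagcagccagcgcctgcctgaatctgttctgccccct
MUC4: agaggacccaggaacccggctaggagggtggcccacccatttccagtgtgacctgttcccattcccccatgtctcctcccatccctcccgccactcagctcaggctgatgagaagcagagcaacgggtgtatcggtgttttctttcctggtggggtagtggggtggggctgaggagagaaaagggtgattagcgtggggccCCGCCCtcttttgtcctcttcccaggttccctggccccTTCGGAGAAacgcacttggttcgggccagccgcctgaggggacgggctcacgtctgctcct

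The MUC1 window held 2 E-boxes, at -82 to -77 and -75 to -70 from the start, 4 GC boxes, of which 3 overlap, and 1 TATA box at -24 to -19. The MUC4 window held no E-box, 1 GC box at -49 to -44 on the other strand and 1 STAT-type match at -11 to -3. Of 27305 RefSeq promoter windows of the same length, 20.6% held the E-box, 44.6% the GC box, 12% the TATA box, 7.88% the STAT motif, 7.76% the AP-1 motif, 3.41% the FOXA motif and 0.0659% the estrogen response element. The GC share was 65.7% in the MUC1 window and 62% in the MUC4 window, against a median of 58.3% over all windows. A match is a description of the letters and shows no binding.

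Membrane mucins differed in both directions, and the trefoil factor genes were higher in shCK5. Of the 9 genes, 7 passed the filter on low counts, and of these 4 were higher in shCK5 (MUC4, TFF1, TFF2 and TFF3) and 3 lower (MUC1, MUC16 and MUC5B) in edgeR's quasi-likelihood F test, adjusted by Benjamini-Hochberg over 19567 genes. Across all genes tested, 82.7% passed the same threshold of 0.05 (40.9% higher and 41.7% lower in shCK5), so a call by itself does not set these genes apart. The libraries of the groups did not overlap for these 7 genes, as for 84.2% of all genes tested. The trefoil factor genes passed the filter through their counts in shCK5 alone and therefore had to differ, and their p-values are given as a description; the same holds for genes named below with few counts in 1 group, such as GALNT5, GALNT13, CREB3L1 and TSPAN8. A log2 fold change is the shCK5 level minus the shControl level on that scale, and its standard error (SE) comes from the fit. Differences of this size were less common than calls: 9.25% of all genes tested were called with a log2 fold change above 2, and 14.1% with one below -2.

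**Figure D1:**
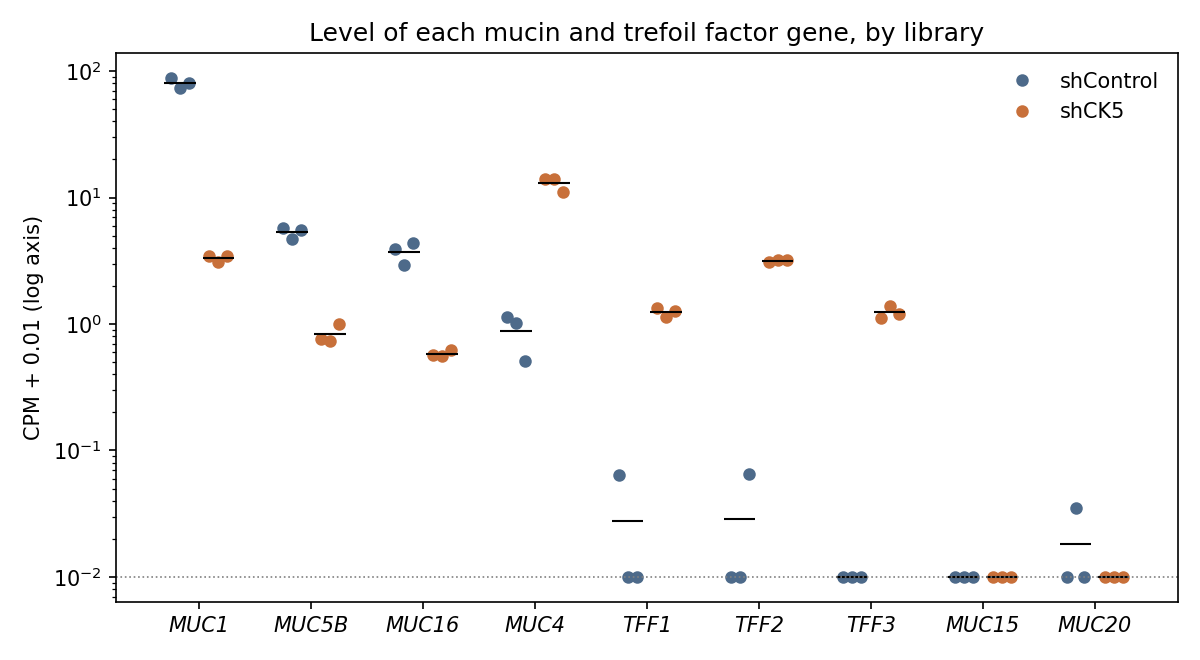
Level of each of the 9 genes in CPM plus 0.01 (log axis) in the 3 shControl and 3 shCK5 libraries; points are libraries, short bars are group means, and the dotted line is no count. MUC1, MUC5B and MUC16 sit lower in every shCK5 library, MUC4 and the 3 trefoil factor genes sit higher, and MUC15 and MUC20 lie at or near no count.

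MUC1 (ENSG00000185499.16, chromosome 1, 155185824 to 155192916, minus strand, GRCh38, protein-coding) encodes a membrane mucin with a signalling cytoplasmic tail. Its level was 88.25, 73.23 and 80.53 CPM in shControl replicates 1, 2 and 3 and 3.414, 3.082 and 3.457 CPM in the shCK5 libraries. Every shCK5 library lay far below every shControl library. The means were 80.67 ± 7.52 and 3.317 ± 0.205 CPM (SD, n = 3 each), from 18195 and 756 counts, and MUC1 was 24.3-fold lower in shCK5 (exact 95% interval from counting error only, 22.6 to 26.1). The log2 fold change was -4.60 (SE 0.0686; edgeR adjusted p = 1.39e-26).

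MUC16 (ENSG00000181143.15, chromosome 19, 8848844 to 8981342, minus strand) encodes a very large membrane mucin that is shed from the cell surface and binds mesothelin. It had 290, 234 and 312 counts in shControl and 44, 42 and 44 in shCK5, or 3.893, 2.934 and 4.348 CPM against 0.5543, 0.5508 and 0.6083 CPM. The groups did not overlap, and the shControl libraries were spread more widely than those of shCK5. It was 6.49-fold lower in shCK5 (interval 5.39 to 7.86; log2 fold change -2.70, SE 0.184; edgeR adjusted p = 8.42e-13).

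MUC5B (ENSG00000117983.17, chromosome 11, 1223066 to 1262172, plus strand) encodes a secreted, gel-forming mucin that is a main component of airway mucus. Its level was 5.718, 4.689 and 5.518 CPM in shControl and 0.7558, 0.7213 and 0.9816 CPM in shCK5, from 1196 and 186 counts. Each shCK5 library was below each shControl library. MUC5B was 6.49-fold lower (interval 5.55 to 7.61; log2 fold change -2.70, SE 0.148; edgeR adjusted p = 9.89e-15). In GENCODE v29 an antisense gene, MUC5B-AS1, overlaps 2.3% of its exon bases; it has no row of that name in the table, and whether the counting used strand is not known here.

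MUC4 (ENSG00000145113.21, chromosome 3, 195746765 to 195812277, minus strand), which encodes a membrane mucin that binds the receptor ERBB2, was the member of the mucin group that was higher in shCK5. It had 84, 80 and 36 counts in shControl and 1108, 1064 and 802 in shCK5, or 1.128, 1.003 and 0.5017 CPM against 13.96, 13.95 and 11.09 CPM. The third library was the lowest in each group, and the groups did not overlap. MUC4 was 14.7-fold higher in shCK5 (interval 12.8 to 17.1; log2 fold change 3.88, SE 0.15; edgeR adjusted p = 6.66e-18).

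MUC15 and MUC20, which encode smaller membrane mucins, did not pass the filter and were not tested. MUC15 (ENSG00000169550.13, chromosome 11, 26559033 to 26572233, minus strand) had no count in any library, which allows up to 0.0133 CPM in shControl and 0.0132 CPM in shCK5 (3 counts over a group's libraries). It lies within ANO3 on the opposite strand, with 175 shared exon bases in GENCODE v29. MUC20 (ENSG00000176945.16, chromosome 3, 195720882 to 195741123, plus strand) had 2 counts in shControl replicate 2 and none elsewhere. In GENCODE v29, 42.8% of its exon bases are shared with the noncoding gene MUC20-OT1 on the same strand, which has no row of that name in the table. Whether reads in shared exons were dropped was not tested, so neither row is read as lack of expression. MUC20P1 is a pseudogene copy of MUC20 and was chosen after its values were seen. It had 216, 191 and 211 counts in shControl and 19, 6 and 4 in shCK5 (log2 fold change -4.42, SE 0.291). MUC20P1 passed the filter through shControl alone, so its p is not given. Reads that match both copies cannot be assigned from the table, so these values are uncertain.

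The trefoil factor genes had almost no counts in shControl and from 86 to 246 counts each in every shCK5 library. They lie in 1 cluster of 54.9 kb on chromosome 21, all on the minus strand. TFF1 (ENSG00000160182.2, 42362282 to 42366594) had 4, 0 and 0 counts in shControl and 106, 86 and 91 in shCK5. In CPM it had 0.05369, 0 and 0 against 1.335, 1.128 and 1.258. No shControl library came near those of shCK5, and the ratio was 70.1 (interval 27.1 to 259; log2 fold change 6.0, SE 0.51; edgeR adjusted p = 6.92e-11). Its shControl counts all came from replicate 1, without which the fitted log2 fold change was 9.56.

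TFF2 (ENSG00000160181.8, 42346357 to 42351128), known as spasmolytic polypeptide and mainly a product of gastric mucous cells, had 0, 0 and 4 counts in shControl and 246, 242 and 232 in shCK5. In CPM the shCK5 libraries had 3.099, 3.174 and 3.208, with a mean of 3.16 ± 0.0557 CPM. The shCK5 libraries lay close together, and the ratio was 178 (interval 69.4 to 657; log2 fold change 7.35, SE 0.376; edgeR adjusted p = 2.41e-15). Without shControl replicate 3, which held its 4 counts, the fitted log2 fold change was 10.92.

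TFF3 (ENSG00000160180.15, 42311667 to 42315651), the intestinal trefoil factor, had no count in any shControl library. It had 87, 106 and 86 counts in shCK5, or 1.096, 1.39 and 1.189 CPM. Against a floor of 3 counts over the shControl libraries, TFF3 was at least 92.2-fold higher in shCK5. That bound takes each count as a separate fragment and would be lower if mates were counted separately. The edgeR adjusted p was 1.01e-11.

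**Figure D2:**
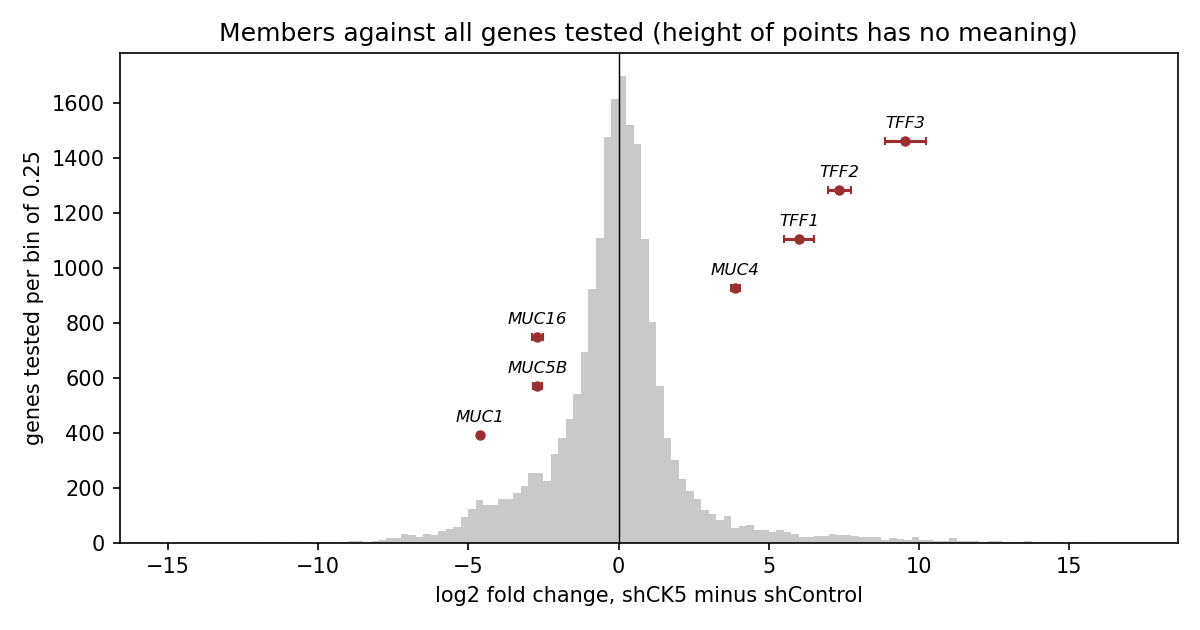
Log2 fold change (shCK5 minus shControl) of the 7 genes tested, with the SE of the fit as bars, over the histogram of all 19567 genes tested; the height of the points has no meaning. MUC1, MUC5B and MUC16 lie between -4.60 and -2.70, MUC4 lies at 3.88 and the trefoil factors lie farther right. TFF3 had no count in shControl, so its point and bar come from the fit and show no measured ratio. The median of the histogram is -0.0194.

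Per length, the order of the genes differed between the groups. Levels here are CPM per kb of exon in GENCODE v29, which need not be the authors' annotation. In shControl the order was MUC1 (17.1 ± 1.6), MUC5B (0.285 ± 0.029), MUC16 (0.085 ± 0.016) and MUC4 (0.0411 ± 0.016), with no overlap between neighbours. TFF1 and TFF2 followed at 0.0325 ± 0.056 and 0.0224 ± 0.039 CPM per kb, and their libraries overlapped with each other and with MUC4. In shCK5 the trefoil factors stood first: TFF2 at 3.81 ± 0.067, TFF1 at 2.25 ± 0.19 and TFF3 at 1.05 ± 0.13 CPM per kb. MUC1 (0.703 ± 0.043) and MUC4 (0.61 ± 0.078) came next and did not differ beyond their spread, followed by MUC5B (0.0441 ± 0.0076) and MUC16 (0.013 ± 0.00074). The exons of the trefoil factors sum to 0.55 to 1.17 kb, against 43.83 kb for MUC16, so the order per length is not that in CPM. Whether multi-mapped reads were counted is not known here. Levels per length would be too low for exons whose reads were dropped for that reason.

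The genes on either side of the trefoil cluster went the other way. TMPRSS3, a membrane serine protease gene 5.2 kb from TFF1, went from 58.96 ± 1.23 CPM in the shControl libraries to 0.8463 ± 0.132 CPM in those of shCK5 (log2 fold change -6.13, SE 0.0727; edgeR adjusted p = 1.36e-28). ABCG1, a cholesterol transporter gene 14.4 kb from TFF3, had 7.635 ± 1.26 and 0.6521 ± 0.107 CPM (log2 fold change -3.55, SE 0.154; edgeR adjusted p = 7.67e-17). UMODL1, the next gene beyond it, had 1.054 ± 0.0234 and 0.06262 ± 0.0553 CPM (log2 fold change -4.06; it passed the filter through shControl alone), and UBASH3A, a gene of T cells, had no count in any library. TMPRSS3 and ABCG1, next to the cluster on each side, were thus lower where the 3 trefoil genes were higher.

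**Figure D3:**
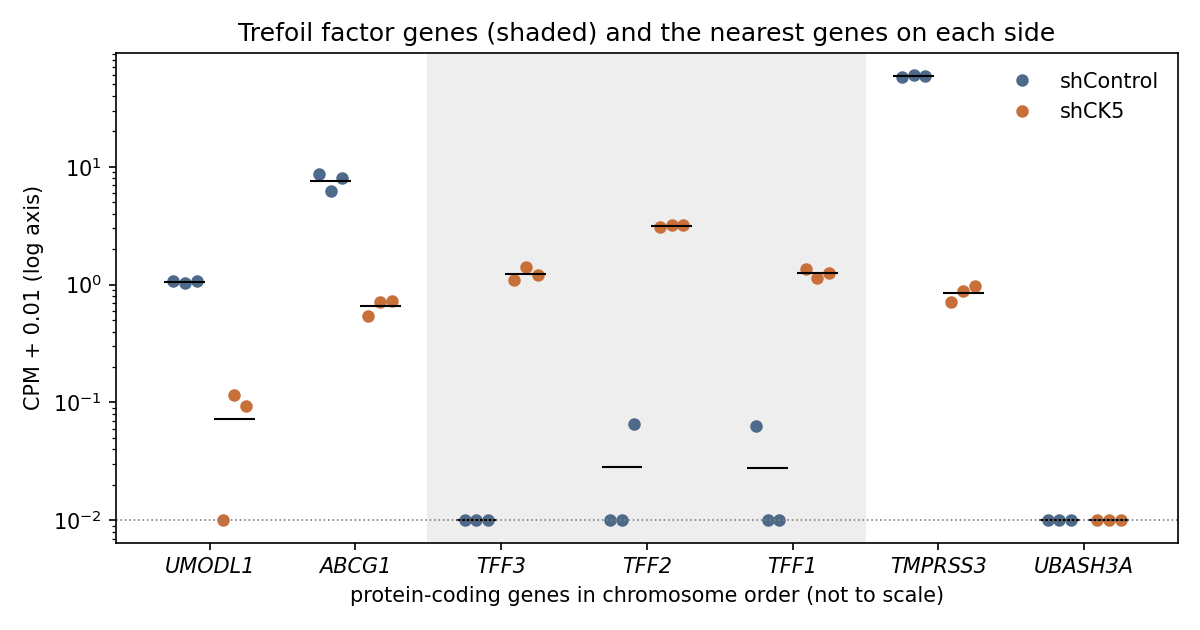
Levels in CPM plus 0.01 (log axis) of the trefoil factor genes (shaded) and the 2 nearest protein-coding genes on each side, in chromosome order and not to scale; points are libraries, short bars group means, and the dotted line is no count. TFF3, TFF2 and TFF1 are higher in shCK5, whereas UMODL1, ABCG1 and TMPRSS3 are higher in shControl.

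Neighbours of the mucin genes moved in either direction. MUC5AC, the other gel-forming airway mucin, lies 21.9 kb from MUC5B. It had 4, 8 and 0 counts in shControl and 76, 56 and 72 in shCK5 (log2 fold change 4.04, SE 0.477). Like the trefoil factors it passed the filter through shCK5 alone and had to differ, so its p is not given. MUC2 next to it had 42 and 26 counts in all and was tested but not called (edgeR adjusted p = 0.361). On the other side of MUC5B, TOLLIP, an adaptor of Toll-like receptor signalling, had a log2 fold change of 1.29 (SE 0.0335) and BRSK2, a kinase gene, of 4.04 (SE 0.209).

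MUC4 and MUC20 lie side by side within 91.4 kb. Outside them, TNK2, a tyrosine kinase gene 51.1 kb from MUC4, had a log2 fold change of 1.49 (SE 0.0349), TFRC, the transferrin receptor gene, of 0.35 (SE 0.0315) and PPP1R2 of 0.60 (SE 0.0382). APOD was below the filter, with 40 counts in shControl and 2 in shCK5. Beside MUC1, THBS3 differed by -0.66 on the log2 scale (SE 0.165; edgeR adjusted p = 0.000746), MTX1 of 0.12 (edgeR adjusted p = 0.152), and TRIM46 had no count. Around MUC16, ZNF558 had a log2 fold change of 0.50 (SE 0.0694), MBD3L1 had 4 and 5 counts, and the olfactory receptor genes OR1M1 and OR7G2 had none. Around MUC15, ANO3 had a log2 fold change of -2.22 (SE 0.42) and FIBIN of -6.01 (SE 0.331), both having passed the filter through shControl alone. LUZP2 was tested but not called (log2 fold change 0.85, edgeR adjusted p = 0.147). SLC5A12 had 10 counts in shControl and none in shCK5. Of 24 such neighbours, 16 were tested, and 7 were higher and 6 lower, close to the shares over all genes tested.

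Among 18 other mucins and mucin-like genes, 9 passed the filter, with 3 higher, 3 lower and 3 not called (median log2 fold change -0.42, against -0.0194 over all genes tested). Of all genes tested, 82.7% were called, 40.9% higher and 41.7% lower, so the share called here is not above the background. PODXL, which encodes the sialomucin podocalyxin, went from 108.8 ± 1.79 to 940.1 ± 11.6 CPM, and HEG1, a mucin-like receptor, from 23.37 ± 2.05 to 267.6 ± 8.11 CPM (log2 fold changes 3.11 and 3.52). OVGP1, the oviductal mucin gene, went from 3.746 ± 0.429 to 0.4567 ± 0.062 CPM, PARM1 from 1.79 ± 0.248 to 0.2785 ± 0.078 CPM and CD164, another sialomucin gene, from 191.9 ± 8.4 to 105.1 ± 3 CPM. MUC6, a gastric gel-forming mucin, had 2.434 ± 0.157 and 2.57 ± 0.484 CPM (edgeR adjusted p = 0.631). MUC12 had 0.3662 ± 0.29 and 0.2723 ± 0.141 CPM (edgeR adjusted p = 0.459). MUC3A, MUC7, MUC13, MUC17, MUC19, MUC21, MUC22, MUCL1 and EMCN were below the filter, with at most 28 counts in a group.

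GalNAc transferases, which attach the first sugar to serine and threonine of mucin backbones, included genes with large differences. Of 20 listed genes, 18 were tested, and 11 were higher, 5 lower and 2 not called, against 40.9% higher, 41.7% lower and 82.7% called in all among all genes tested; the share called is near that background (median log2 fold change 0.69, against -0.0194 over all genes tested). GALNT5 had 2 counts in shControl, both in replicate 3, and 35.14 ± 2.09 CPM in shCK5 (ratio 3970, interval 1100 to 32800). GALNT18 went from 0.1802 ± 0.0406 to 27.65 ± 0.222 CPM and GALNT13 from 0.1208 ± 0.0414 to 7.632 ± 0.224 CPM (log2 fold changes 7.24 and 5.98). The lower members that were more abundant differed by less: GALNT14, GALNT3 and GALNT6 had log2 fold changes of -0.78, -0.63 and -0.51 (SE 0.0378 to 0.0743). GALNT4 had no count in any library.

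Genes that extend and cap these sugars were called in both directions. Of 21 genes, 18 were tested, and 6 were higher, 11 lower and 1 not called (median log2 fold change -1.23), against 40.9% higher and 41.7% lower among all genes tested. No difference from other genes was tested for this list or for the others here. FUT3, a Lewis fucosyltransferase with close copies whose reads may be shared, went from 22.13 ± 0.918 to 0.9431 ± 0.342 CPM. B3GNT3, which extends core structures, went from 98.81 ± 2.32 to 8.072 ± 0.034 CPM, and FUT1 from 15.31 ± 0.841 to 3.336 ± 0.349 CPM. GCNT1, which makes the branched core, went from 0.1524 ± 0.0709 to 21.7 ± 1.39 CPM (log2 fold change 7.16, SE 0.142). Sialyltransferase genes differed in both directions: ST6GALNAC4 and ST3GAL2 had log2 fold changes of 2.88 and 1.72, and ST6GALNAC2 of -1.46. ST6GALNAC3 went from 1.27 ± 0.177 to 0.3151 ± 0.0335 CPM. ST3GAL1, the most abundant of those listed, went from 235.6 ± 3.82 to 55.33 ± 1.79 CPM, and ST3GAL4 had 50.12 ± 1.2 and 49.42 ± 1.09 CPM (edgeR adjusted p = 0.604).

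**Figure D4:**
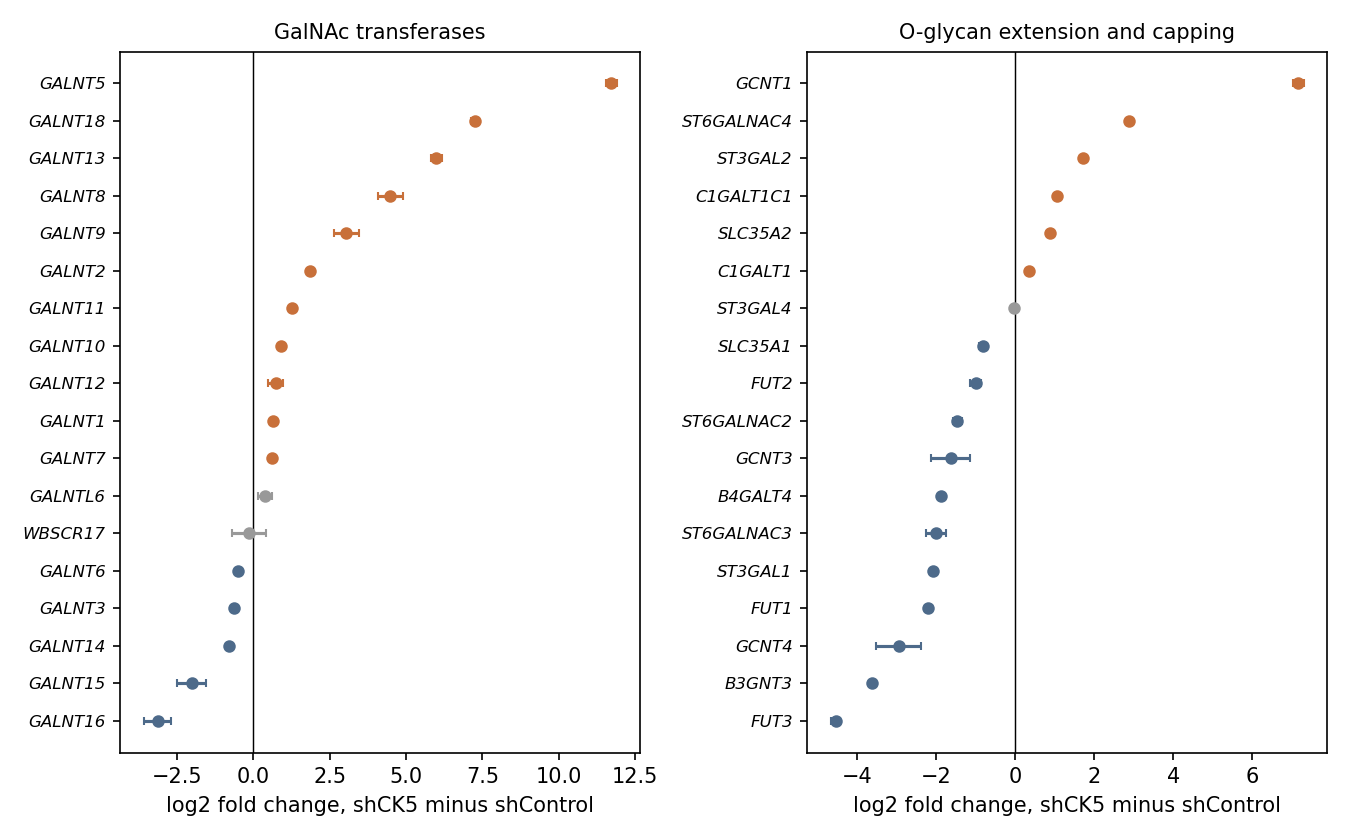
Log2 fold change (shCK5 minus shControl) of the tested GalNAc transferases (left) and of the tested genes for extension and capping of O-linked sugars (right); bars are the SE of the fit, orange points are genes called higher in shCK5, blue points lower, and grey points not called; WBSCR17 is the older symbol of GALNT17. GALNT5, GALNT18, GALNT13 and GCNT1 lie farthest to the right and FUT3 farthest to the left.

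Genes of mucous secretory cells, with which trefoil factors are usually made, were called in both directions. Of 23 listed, 15 were tested, and 5 were higher, 7 lower and 3 not called (median log2 fold change -0.59), close to the 40.9% higher and 41.7% lower among all genes tested. SPDEF, a transcription factor of goblet cells, went from 57.18 ± 3.29 to 8.671 ± 0.306 CPM, SLPI, a secreted protease inhibitor gene, from 46.16 ± 2.78 to 1.847 ± 0.223 CPM and WFDC2 from 4.884 ± 0.225 to 0.9756 ± 0.149 CPM. CREB3L1, a membrane-bound transcription factor gene of secretory cells, went from 0.1668 ± 0.0881 to 114.3 ± 4.92 CPM, TSPAN8, a tetraspanin gene, from 0.08942 ± 0.0446 to 1.271 ± 0.0235 CPM and QSOX1, which forms disulfide bonds, from 140.9 ± 2.69 to 660.3 ± 17.4 CPM. Of 8 goblet cell markers, 6 were tested, with 1 higher (MUC5AC) and 3 lower, against 82.7% called among all genes tested. Their summed level was 95.7 to 100.7 CPM in shControl and 18.07 to 18.25 CPM in shCK5. Most of that sum came from SPDEF, FCGBP (31.39 and 6.35 CPM) and AGR2 (8.504 and 2.041 CPM). These genes are also in the list above, so the sum is not a separate result. CLCA1 had no count in shControl and ZG16 had none in shCK5.

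Among estrogen receptor and luminal hormone genes, 18 were listed and 16 tested, and 12 were lower, 3 higher and 1 not called (median log2 fold change -1.62), against 41.7% lower and 40.9% higher among all genes tested. TFF1, itself an estrogen-induced gene, was higher. ESR1, which encodes estrogen receptor alpha, went from 8.082 ± 0.667 to 0.5451 ± 0.0387 CPM. ESR1 RNA was thus counted in shControl, in a line described above as lacking the hormone receptors, and receptor protein was not measured. FOXA1, a pioneer factor of luminal cells, went from 34.81 ± 0.64 to 0.6522 ± 0.0962 CPM and RERG from 37.15 ± 2.04 to 0.5353 ± 0.0821 CPM. The 3 higher genes were IGFBP4 (log2 fold change 4.54, SE 0.0294), CA12 (1.53, SE 0.143) and SLC39A6 (0.74, SE 0.0346). AGR2 and AGR3 stand in this list and in that of mucous secretory genes. PGR, the progesterone receptor gene, had no count in shControl and 6 in shCK5.

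Partners and sheddases of membrane mucins were called in both directions, with 8 of 15 higher, 6 lower and 1 not called (median log2 fold change 0.16), near the background of 40.9% higher and 41.7% lower among all genes tested. MSLN, which encodes the MUC16 ligand mesothelin, went from 1.775 ± 0.227 to 10.38 ± 0.462 CPM while MUC16 was lower. MMP14, a protease that sheds MUC1, went from 39.84 ± 2.41 to 237.3 ± 6.47 CPM, and ADAM17, another, had a log2 fold change of -0.23 (SE 0.043). LGALS8, a galectin gene, had a log2 fold change of 1.35. ICAM1, a ligand of MUC1, went from 99.86 ± 1.67 to 6.604 ± 0.734 CPM. Of the receptors, EGFR, the most abundant, went from 2895 ± 44.3 to 734.6 ± 12.1 CPM (log2 fold change -1.98, SE 0.0257). ERBB2, the partner of MUC4, had 70.02 ± 4.03 and 91.23 ± 0.968 CPM (log2 fold change 0.38, SE 0.0361), while ERBB3 went from 43.65 ± 2.16 to 3.17 ± 0.241 CPM. JUP, the gene of plakoglobin, which can bind the MUC1 tail, had a log2 fold change of -2.90.

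Partners and candidate receptors of trefoil factors were few. Of 8 listed, 4 were tested, and 1 was higher, 2 lower and 1 not called, with 82.7% called among all genes tested. FCGBP, a mucus protein that binds TFF3, went from 31.39 ± 1.97 to 6.35 ± 0.32 CPM. F2RL1, which encodes protease-activated receptor 2, went from 45.19 ± 1.63 to 153.5 ± 3.22 CPM. CXCR4 had 86 counts in shControl and 6 in shCK5, LINGO2 had 168 and 137 (edgeR adjusted p = 0.262), and GKN1, GKN2, ACKR3 and LINGO3 were below the filter.

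Genes with the most similar profile were found by the root-mean-square distance between log2 CPM values over the 6 libraries. A prior of 2 counts was added before the log, and each gene was centred on its own mean. DHRS3 was nearest to MUC1 (0.0665 log2 units), CNFN and EDAR to MUC5B (0.0627 and 0.0956), and EDAR and BCL6 to MUC16 (0.1 and 0.111). PMFBP1 and SPRR1B were nearest to MUC4 (0.0696 and 0.176). Among the trefoil factors, HPGD and HLA-DRA were nearest to TFF1 (0.2 and 0.232), GSTM2 and WASF3 to TFF2 (0.0709 and 0.184) and MSX2 and C11orf44 to TFF3 (0.043 and 0.0863); MSX2 and C11orf44 also had no count in shControl. With 2 groups of 3 libraries, such distances mostly compare the size of 1 difference. The prior shrinks that size for genes with few counts, so near genes can differ in fitted log2 fold change. PMFBP1 had 4.96 against 3.88 for MUC4, and GSTM2 had 6.48 against 7.35 for TFF2.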

How the data were processed

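The authors deposited 1 table of whole-number counts of reads for each gene symbol, with no normalization. GRCh38 is the build, and STAR, cutadapt, Cufflinks and SAMtools are the tools, per the submitters' processing notes. How reads were counted, with which annotation and strand setting, and whether multi-mapped ones entered, are points not given in the sources used here. Columns were assigned to libraries by name. Even numbers made up 63.1% to 65% of counts over 20, so mates may have been counted separately. Intervals from counts are then too narrow, floors too low and the bound for TFF3 too high.

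Counts were analysed in R 4.3.3 with edgeR 4.0.16 (filterByExpr, TMM factors, glmQLFit and glmQLFTest, no covariate), adjusted by Benjamini-Hochberg over 19567 genes with a threshold of 0.05. The SE is the log2 fold change divided by the square root of the F statistic. The script was tested on simulated data in which far fewer genes differed, and by less, than here. That test therefore does not cover the present setting. Alternatives included DESeq2 1.42.0. Coordinates and exon lengths are from GENCODE v29. Intervals and floors cover counting error only. The genes and lists were chosen with earlier results of these data known. Genes named from a list are the called members with the largest differences, up to 3 in each direction, with at least 1 CPM in a group; others were named for their role after their values were seen. GALNT17 was matched through its RefSeq synonym WBSCR17. Some results are not reported here. The replicate numbers did not pair the libraries.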

Additional observations from a re-analysis of the deposited data

How the results depend on the processing

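The calls of the 7 tested genes held in direction and threshold in edgeR with library size alone, with median-of-ratios size factors, with no low-count filter, with a filter at 1 CPM in 3 libraries, with halved counts, without each library in turn, and in DESeq2. For TFF1, TFF2 and TFF3 that outcome was fixed, as they passed the filter through shCK5 alone and had to differ. Only the calls of MUC1, MUC4, MUC16 and MUC5B were open to change. The log2 fold change ranged from -4.74 to -4.53 for MUC1 and from 3.61 to 4.09 for MUC4. It ranged from -2.85 to -2.57 for MUC16 and from -2.83 to -2.60 for MUC5B. It ranged from 5.42 to 9.56 for TFF1, from 6.77 to 10.92 for TFF2 and from 8.54 to 9.60 for TFF3, where few or no shControl counts set the fitted value. For TFF1 and TFF2 the lowest value came without shControl replicate 2, and the highest without replicate 1 and replicate 3, which held their counts. With the replicate number as a block, 15926 genes were called in place of 16177, and 7 of the 9 genes as before. Deviations of libraries with the same number correlated at -0.00606, 0.00752 and -0.0033 across genes, and no library correlated best with its own number. Scaling by library size alone moved the median over all genes tested from -0.0194 to -0.156, with 7167 higher and 9118 lower. MUC15, with no count, was tested in none of these; MUC20, with 2 counts, was tested when no filter was used and was not called.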
